A study of Ovis aries with 8 samples.

Results

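The genes described here are 10 antioxidant genes read in the perirenal fat depot, which surrounds the kidney: the superoxide dismutases SOD1, SOD2 and SOD3, the catalase gene CAT, the glutathione peroxidases GPX1 and GPX3, the peroxiredoxins PRDX1, PRDX3 and PRDX6, and the metallothionein MT2A. They were chosen by name, and all 10 were found among the 9155 genes to which the array's annotation gives a probe set with 1 symbol. Together they had 16 of the 24016 bovine probe sets, since SOD3, GPX1, PRDX3 and PRDX6 had several, and the brightest one by mean over the 8 arrays stood for each gene. All 10 lay above the median level of all probe sets, 5.99 on the log2 scale.

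The tissue came from 4 lambs labelled Callipyge (CN, or NmatCpat in the study), whose paternal copy bears the mutation, and 4 labelled wildtype (NN, or NmatNpat), which lack it. All 8 were male lambs of 12 weeks from a Dorset/Suffolk/Rambouillet cross-bred flock, and each gave 1 Affymetrix Bovine Genome array. Lambs of the flock were genotyped for the causal base change, were not weaned before 12 weeks and were offered a trace mineral salt mix. The study used the arrays to ask whether the mutation acts, directly or through the enlarged muscles, on a fat depot of these lean animals. A probe set is a group of short oligonucleotides that together read 1 transcript. Here they were designed on cattle sequence, so a sheep transcript that differs under the probes can read low.

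Cells that burn and store fat form superoxide as a by-product of respiration. Superoxide dismutases turn superoxide into hydrogen peroxide, and catalase, glutathione peroxidases and peroxiredoxins then reduce the peroxide to water. Metallothioneins are small cysteine-rich proteins that bind zinc and copper, scavenge oxidants, and are induced by metals and glucocorticoids. SOD3 and GPX3 are secreted, and adipose tissue is a known source of both.

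Fat cell genes were bright on all arrays, with 12 of 13 measured adipocyte markers above the median level; the hormone ADIPOQ read 12.81 to 13.29. One array stood farthest apart from the rest. That of wildtype animal 1 carried neuron or chromaffin transcripts, which the list does not separate. The summed signal of 11 of 13 listed neuron and chromaffin markers reached 26401 there. The lowest wildtype sum was 2328, and the sums were 2575 to 3104 in Callipyge lambs. NEFL, a neurofilament subunit, read 12.13 on that array against 0.54 to 6.09 elsewhere, and TH, of catecholamine synthesis, 10.21 against 3.30 to 5.81. Of the 11 markers 10 were highest there, though CHGA only slightly, at 11.55 against 10.66 to 11.38. SYT1 was lowest there, at 2.69 against 4.33 to 6.46. The same array had the highest ratio of 3' to 5' actin signal, a sign of RNA quality, at 26.1 against 4.04 to 11.8. For GAPDH, the other control read this way, the ratio was 1.06, inside the 0.94 to 1.15 of the other arrays. The array of wildtype animal 1 also had the lowest mean correlation with the other arrays, 0.897. There 77 of 6333 genes above the median level lay over 1 log2 unit above all other lambs, against 0 to 6 elsewhere. Muscle markers set Callipyge animal 4 apart in part. It was highest in 10 of 13, most of them dim. Its mean deviation over the 13 was 1.33 log2 units, against -0.60 to 0.09 in the other lambs. MYL2, a myosin light chain, read 7.03 there against 0.96 to 3.63. But CKM, the muscle creatine kinase, was lowest there, at 9.22 against 9.63 to 10.25. The summed muscle signal was 6269 in that lamb, 3889 to 5760 in the other Callipyge lambs and 4801 to 6910 in wildtype lambs. No marker of either list was at 0. In whole tissue, fewer cells of a type and less RNA per cell cannot be told apart.

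None of the 10 genes differed between the genotypes at the thresholds of the study, a P no higher than 0.05 together with a fold change above 1.5 (called P and fold below). By the same rule 3.93% of all probe sets and 2.91% of the brightest probe sets of all genes were called, so that a count of 0 among 10 lies close to the background. With limma, none of the 10 had a P this low at any fold, where 3.79% of all genes did, and none had an adjusted p under 0.05, where the share of all probe sets was 0%. The genotypes overlapped in all 10, whereas they did not overlap in 2.84% of all genes. Among the 10, 4 read higher and 6 lower in Callipyge lambs. The median log2 difference (Callipyge minus wildtype) was -0.08, against 0.0046 over all genes, and the median size of the difference was 0.12 against 0.18.

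**Figure D1:**
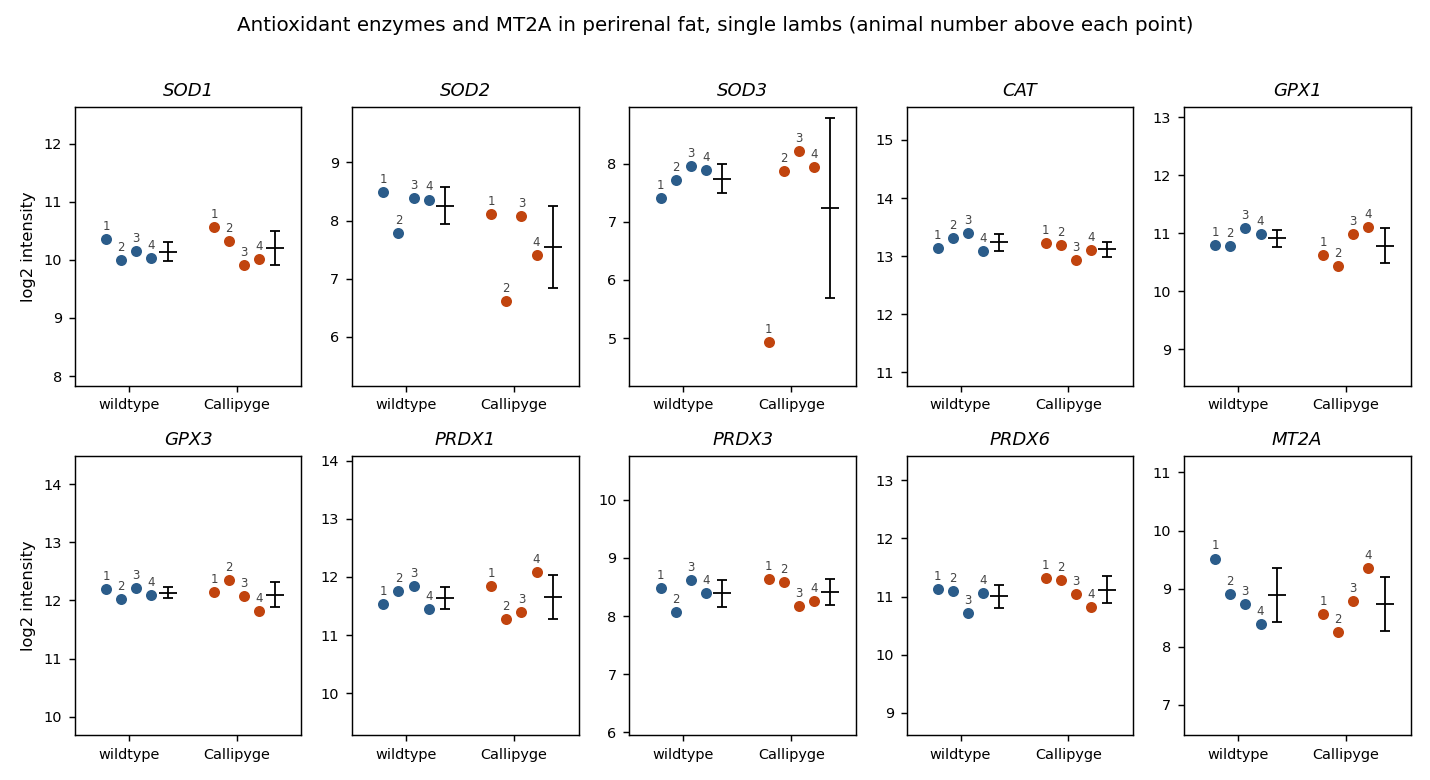
Log2 intensity (vertical axis, quantile-normalized; every panel spans the same number of log2 units) of the 10 genes on their brightest probe sets in wildtype (blue) and Callipyge (red) lambs. Each point is 1 lamb, with its animal number above, and black bars give the mean and SD of a genotype. The genotypes overlap in every panel, and SOD3 of Callipyge animal 1, at 4.93, lies apart.

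The 3 superoxide dismutases sit in different places, SOD1 in the cytosol, SOD2 in the mitochondrial matrix and SOD3 outside the cell, and they behaved differently among the lambs. SOD1, the copper and zinc enzyme, read 10.56, 10.33, 9.91 and 10.02 in Callipyge animals 1 to 4 and 10.36, 10.002, 10.15 and 10.04 in wildtype animals 1 to 4. Both the highest and the lowest lamb were Callipyge. SOD1 differed by 0.06, with a 95% interval from -0.40 to 0.52 (two-sided exact permutation test, p = 0.771). CCS, the chaperone that loads copper into SOD1, differed by 0.04.

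SOD2, the manganese enzyme, had the smallest P of the 10 genes. It read 8.11, 6.61, 8.07 and 7.41 in Callipyge and 8.50, 7.78, 8.39 and 8.36 in wildtype lambs. Callipyge animals 2 and 4 lay below every wildtype lamb, and no Callipyge lamb reached the highest wildtype lamb. The means were 7.55 ± 0.70 (SD, n = 4) in Callipyge and 8.26 ± 0.32 (SD, n = 4) in wildtype lambs, a log2 difference of -0.71 (1.63-fold, standard error 0.36, adjusted p = 0.983 from limma). The interval ran from -1.55 to 0.13, and the exact permutation test gave p = 0.143. The size rested in part on Callipyge animal 2, without which the difference was -0.39. SOD2 passed P and fold without Callipyge animal 1, where the difference was -0.90.

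SOD3 read 7.87, 8.22 and 7.94 in Callipyge animals 2 to 4 and 7.41, 7.72, 7.96 and 7.90 in wildtype lambs, but 4.93 in Callipyge animal 1. That 1 lamb gave Callipyge an SD of 1.55, against 0.24 in wildtype lambs, and an interval from -2.11 to 1.10 around a difference of -0.51 (exact permutation test, p = 0.886). Without Callipyge animal 1 the difference was 0.26. The dimmer SOD3 probe set was also lowest in that lamb, at 5.63 against 6.25 to 6.98 in the others. Its difference was -0.43 (exact permutation test, p = 0.286).

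Catalase breaks down hydrogen peroxide in peroxisomes, where fatty acids are also oxidised. CAT varied least of the 10 genes, with readings of 13.22, 13.20, 12.94 and 13.10 in Callipyge and 13.14, 13.31, 13.40 and 13.09 in wildtype lambs. CAT differed by -0.12, with an interval from -0.49 to 0.24 (exact permutation test, p = 0.286). Of 8 other measured genes of peroxisome assembly none passed P and fold.

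Glutathione peroxidases are selenium enzymes that spend glutathione, GPX1 in the cytosol and mitochondria and GPX3 in plasma. GPX1 read 10.62, 10.44, 10.98 and 11.10 in Callipyge and 10.79, 10.78, 11.09 and 10.98 in wildtype lambs. Callipyge animals 1 and 2 lay below all wildtype lambs and Callipyge animal 4 above them. GPX1 differed by -0.13, with an interval from -0.59 to 0.34 (exact permutation test, p = 0.514), and the dimmer probe set differed by -0.27. GPX3 read 12.15, 12.35, 12.08 and 11.82 in Callipyge and 12.19, 12.02, 12.22 and 12.09 in wildtype lambs. Its Callipyge mean, 12.10 ± 0.22 (SD, n = 4), and wildtype mean, 12.13 ± 0.093 (SD, n = 4), differed by -0.03 with an interval from -0.42 to 0.36.

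Peroxiredoxins reduce peroxides with a reactive cysteine and are recharged by thioredoxin or, for PRDX6, by glutathione. PRDX1, the cytosolic form, read 11.85, 11.27, 11.40 and 12.09 in Callipyge and 11.53, 11.76, 11.85 and 11.44 in wildtype lambs. The Callipyge lambs lay on both sides of the wildtype lambs, 2 below and 1 above all of them. The means differed by 0.0068, with an interval from -0.52 to 0.54. PRDX3, the mitochondrial form, read 8.64, 8.58, 8.17 and 8.26 in Callipyge and 8.49, 8.07, 8.62 and 8.40 in wildtype lambs. Its difference was 0.02, with an interval from -0.43 to 0.47, against -0.26 on a dimmer probe set that read 4.56 to 6.02. PRDX6 read 11.32, 11.28, 11.04 and 10.82 in Callipyge and 11.14, 11.09, 10.71 and 11.07 in wildtype lambs. The difference was 0.12 on this probe set, with an interval from -0.32 to 0.55, and -0.22, -0.12 and 0.19 on the other PRDX6 probe sets, the last of which read 0.80 to 2.69, near the floor of the array.

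MT2A, the only metallothionein among the 10, read 8.56, 8.24, 8.78 and 9.35 in Callipyge and 9.52, 8.90, 8.73 and 8.40 in wildtype lambs. The highest lamb was wildtype animal 1, whose array carried neuron or chromaffin transcripts and had the high actin ratio. The part of either in the MT2A reading was not tested. The means were 8.73 ± 0.47 and 8.89 ± 0.47 (SD, n = 4 each), and the log2 difference of -0.16 had an interval from -0.89 to 0.58 (exact permutation test, p = 0.629). Without wildtype animal 1 it was 0.054. Metallothionein genes are close copies of each other, so a probe set may bind more than 1 of them. MT1A read 7.19 to 7.45 in Callipyge lambs, a narrow band, but 7.92, 7.78, 6.69 and 5.60 in wildtype lambs (difference 0.30, or -0.16 without wildtype animal 4; exact permutation test, p = 0.657). MT3, the metallothionein of brain, read 8.46 in wildtype animal 1 against 2.93 to 5.98 in the other lambs, and its difference of -1.29 was -0.44 without that lamb. MT1A and MT3 are named for their family and were chosen after their values were seen.

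**Figure D2:**
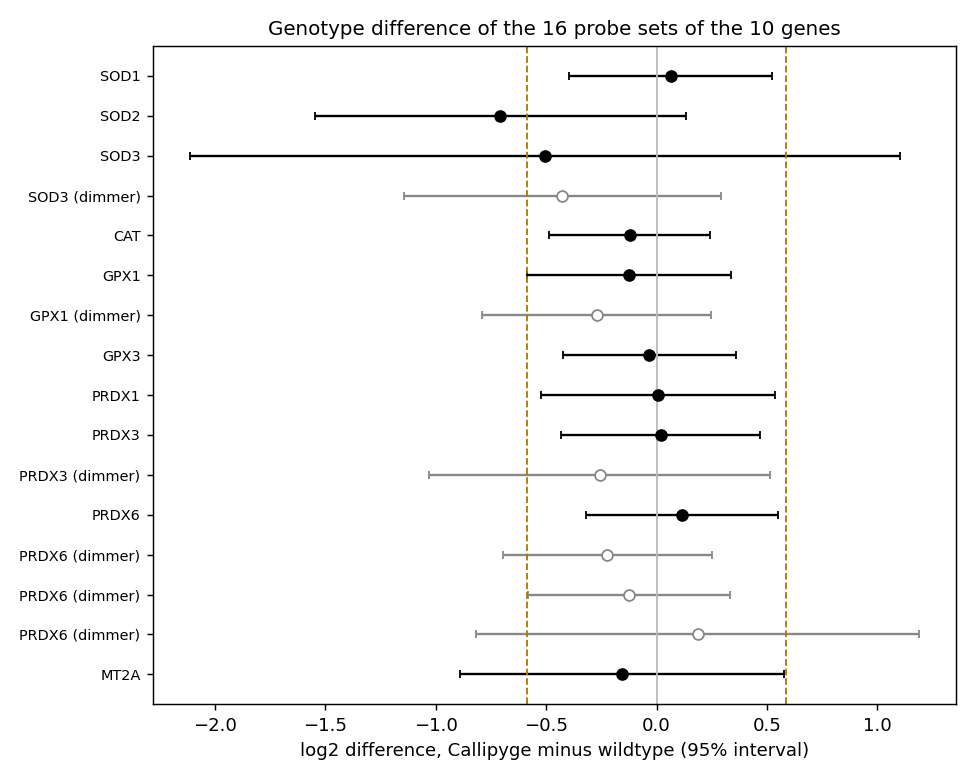
Log2 difference between the genotypes (horizontal axis, Callipyge minus wildtype) with its 95% interval from limma for all 16 probe sets; filled points are the brightest probe set of a gene and open grey points its others. Dashed lines mark the fold threshold of 1.5 in either direction. The intervals of SOD1, CAT, GPX3, PRDX1, PRDX3 and PRDX6 lie between the dashed lines on the brightest probe sets, and those of SOD2 and SOD3 are the widest of the filled points.

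Read 1 gene at a time and not adjusted for the number of genes, the intervals bound the difference in array signal. On the brightest probe sets of 6 of the 10 genes, the 95% interval excluded a 1.5-fold change in either direction, as it did in 25.9% of all genes. These were SOD1, CAT, GPX3, PRDX1, PRDX3 and PRDX6. Dimmer probe sets did not all do so: the interval ran from -1.03 to 0.51 for PRDX3 and from -0.69 to 0.25 for the second brightest of PRDX6. For 8 of the 10 genes the interval of the brightest probe set excluded a 2-fold change, as in 62.9% of all genes, and the exceptions were SOD2 and SOD3. The median half-width was 0.46 log2 units against 0.59 over all genes and 0.50 over those above the median level. The 10 genes also varied less between lambs, with a median SD over 8 arrays of 0.23. It was 0.36 over all genes and 0.28 over the 6333 genes above the median level. The mean levels of the 10 ran from 7.49 to 13.18. Neither the half-width nor the SD was compared with genes of matched level, so the part of brightness in both was not tested. The lambs did not share 1 order over the genes. Callipyge animal 1 was highest in SOD1, PRDX3 and PRDX6 and lowest in SOD3. Callipyge animal 2 was lowest in SOD2, GPX1, PRDX1 and MT2A and highest in GPX3. The median deviation over the 10 genes ran from -0.11 to 0.12 in Callipyge and from -0.02 to 0.21 in wildtype lambs.

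**Figure D3:**
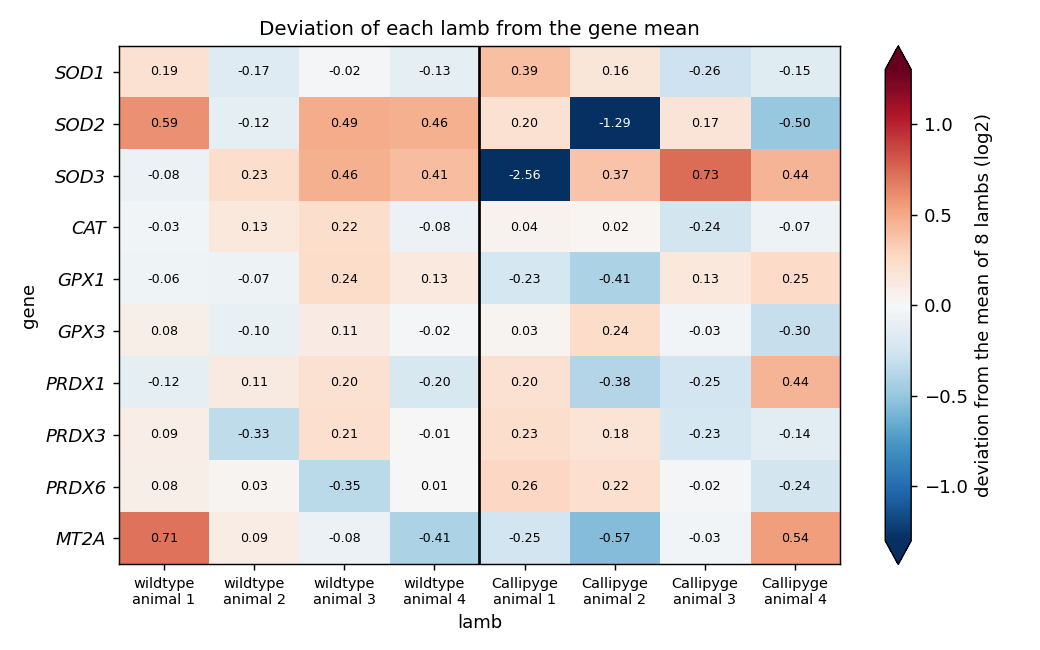
Deviation of each lamb (columns, wildtype left and Callipyge right of the black line) from the mean of the 8 lambs for each of the 10 genes (rows), in log2 units, printed in each cell and shown as colour (red above, blue below the mean; past the ends of the scale the colour no longer deepens). The deepest cells are SOD3 in Callipyge animal 1, at -2.56, and SOD2 in Callipyge animal 2, at -1.29; no column is of 1 colour.

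For the 3 genes that varied most, SOD3, SOD2 and MT2A, the genes with the most similar pattern over the 8 lambs were sought among 6332 genes above the median level, by the root mean square difference of centred log2 values. For SOD3 these were TMEM37, MTA2 and TAMM41, at 0.46 to 0.47 where the median gene lay at 1.03. All of them were lowest in Callipyge animal 1, where TMEM37 read 4.19 against 6.18 to 7.01 in the others. For SOD2 they were HBS1L, KCTD9 and DPYS, at 0.26 to 0.27 against a median of 0.65, all lowest in Callipyge animal 2. For MT2A they were TSC22D4, YWHAH, a signalling adaptor abundant in brain, and NME2, a nucleoside diphosphate kinase. They lay at 0.18 against a median of 0.49, and each was highest in wildtype animal 1, with Callipyge animal 4 next. Since these genes were picked for their likeness, a shared highest or lowest lamb is largely set by that choice. The likeness describes 8 arrays and carries no test.

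The wider systems around these genes were read in 9 lists that together held 118 measured genes, the 10 included. Of these, 58 read higher and 60 lower in Callipyge lambs, with a median log2 difference of -0.0033. Of the 118, 4 passed P and fold, or 3.39%, where the background over all genes was 2.91%: MTF1, SELENBP1 and MGST3, higher in Callipyge lambs, and GSTT1, lower. In limma 6 had an unadjusted P no higher than 0.05, and after adjustment none was under 0.05. The genotypes did not overlap in MTF1, SELENBP1, GCLM, BLVRA and TXNL1, where they did not in 2.84% of all genes. TXNL1, of the thioredoxin list, was named after its values were seen.

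**Figure D4:**
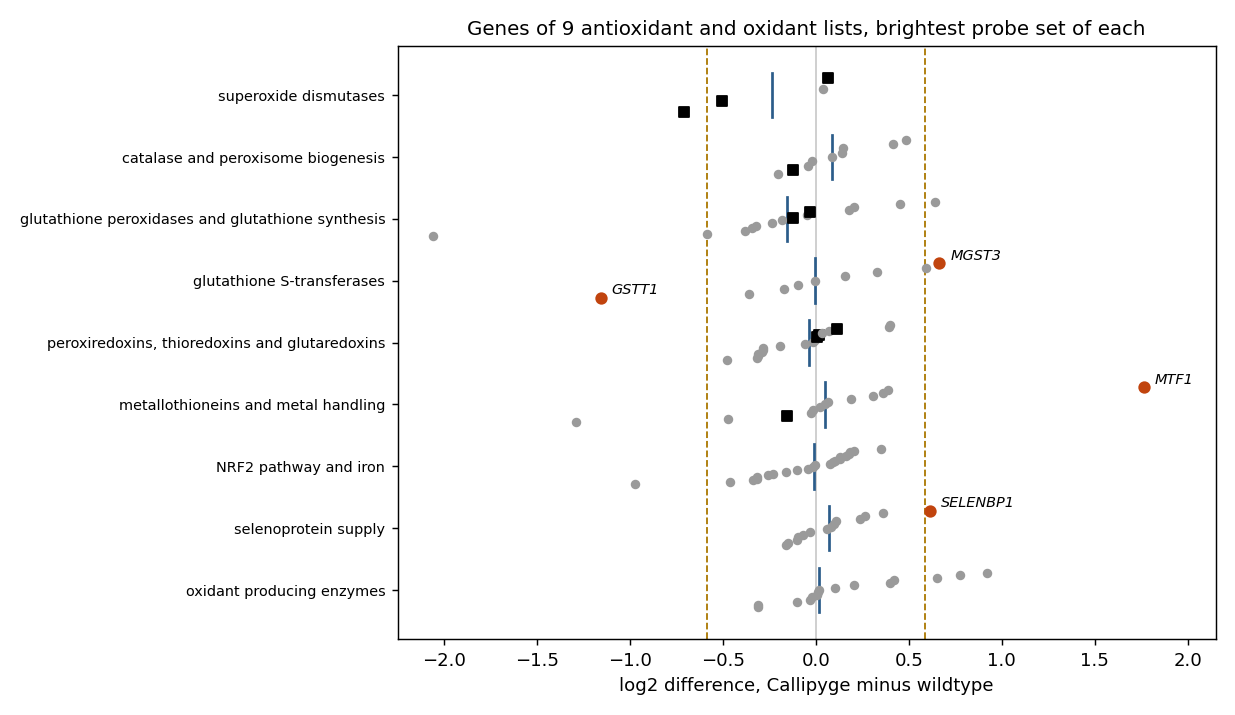
Log2 difference between the genotypes (horizontal axis, Callipyge minus wildtype) for the genes of 9 lists (rows), 1 point per gene on its brightest probe set. Black squares are the 10 genes, red points the others past P and fold, grey points the rest, blue bars the median of a list, and dashed lines the fold threshold of 1.5. The medians lie between -0.23 and 0.09, and MTF1, at 1.76, lies farthest to the right.

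MTF1, the zinc-sensing transcription factor that switches on metallothionein genes, had the smallest P of the 118. It read 5.72, 5.89, 6.37 and 6.71 in Callipyge and 3.78, 5.71, 4.34 and 3.81 in wildtype lambs. Every Callipyge lamb lay above every wildtype lamb, though Callipyge animal 1 and wildtype animal 2 were only 5.72 and 5.71. The log2 difference was 1.76 (standard error 0.46, interval 0.70 to 2.83, adjusted p = 0.983 from limma). Its mean level, 5.29, was below the median level of all probe sets, and with an offset of 16 added to the intensities the difference was 1.20. The differences of the metallothionein genes were -0.16 for MT2A, 0.30 for MT1A and -1.29 for MT3, and none passed. A link between these and the MTF1 reading was not tested. Of 13 measured genes of metal handling, 8 read higher and 5 lower, and MTF1 alone passed.

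Of 14 measured genes that supply and spend glutathione, 10 read lower and 4 higher in Callipyge lambs, and none passed P and fold. The median log2 difference was -0.15, against 0.0046 over all genes. Of the 10, GSR, GPX2, GPX4 and GSS were highest in wildtype animal 1, and the part of that array in the count was not tested. GSR, which regenerates reduced glutathione, read 5.997, 5.87, 6.34 and 5.86 in Callipyge and 7.09, 6.55, 6.33 and 6.44 in wildtype lambs. Its log2 difference of -0.58 fell just short of the fold threshold of 0.585 log2 units (exact permutation test, p = 0.0571). It passed without Callipyge animal 3, wildtype animal 3 or wildtype animal 4, at -0.69 to -0.64, and with cyclic loess, at -0.59. Without wildtype animal 1, where GSR was highest and the array carried neuron or chromaffin transcripts, the difference was -0.42. Without Callipyge animal 4 as well it was -0.37, and neither passed. GCLM, a subunit of the enzyme that limits glutathione synthesis, read 6.76 to 7.02 in Callipyge and 7.04 to 7.65 in wildtype lambs, without overlap, a difference of -0.38 with an interval from -0.80 to 0.04. GPX2, the gut form of glutathione peroxidase, read 10.95 in wildtype animal 1 against 4.82 to 7.54 in the other lambs. Its difference of -2.06 passed P and fold without wildtype animal 2, at -2.64, and was -0.89 without wildtype animal 1 and Callipyge animal 4. GCLM, GPX2, GPX4 and GSS were named after their values were seen.

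**Figure D5:**
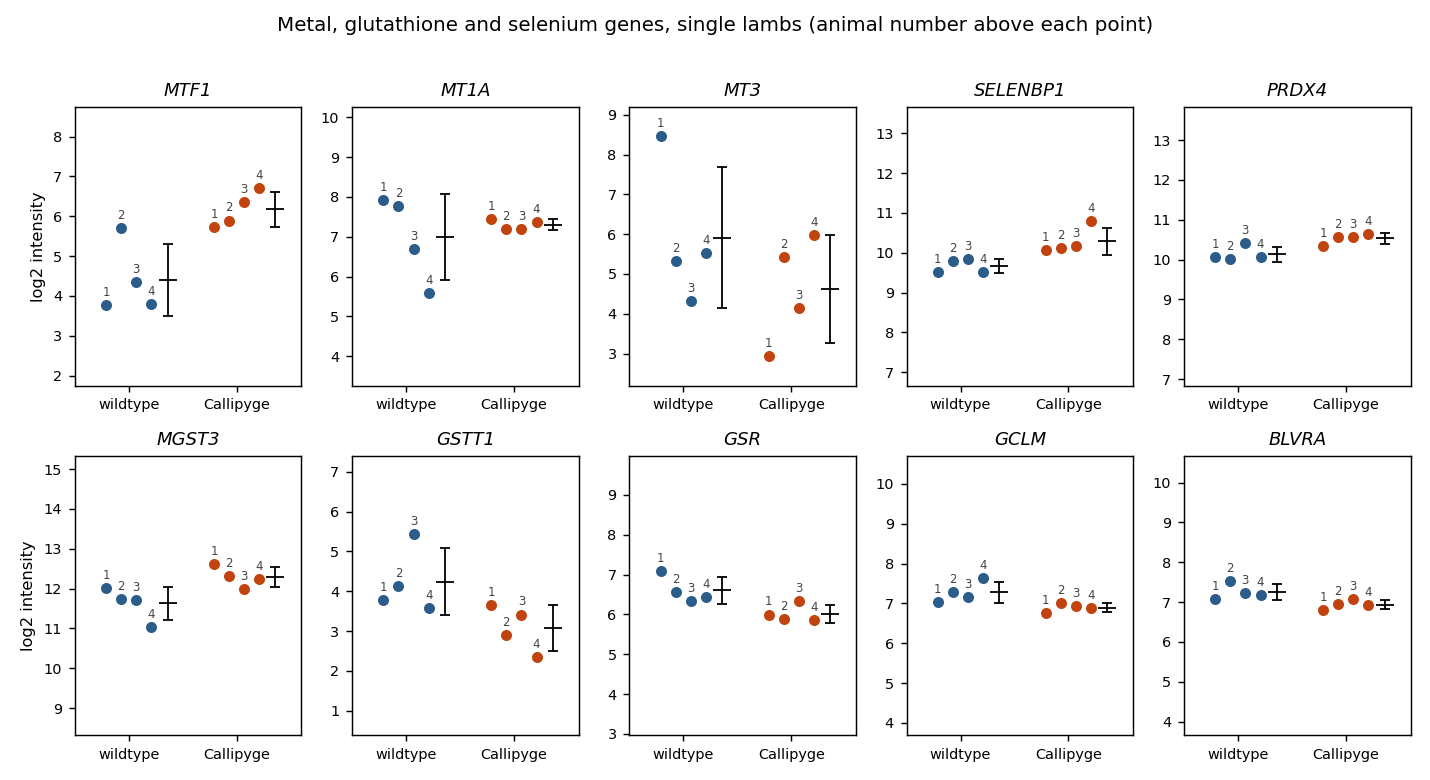
Log2 intensity (vertical axis, quantile-normalized; every panel spans the same number of log2 units) of 10 genes of metal handling, selenium, glutathione and haem breakdown in wildtype (blue) and Callipyge (red) lambs. Each point is 1 lamb, numbered as in the labels, and black bars give the mean and SD of a genotype. The genotypes are apart in MTF1, SELENBP1, GCLM and BLVRA, and MT1A is spread in wildtype lambs only, from 5.60 to 7.92.

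Of 9 measured glutathione S-transferases, which join glutathione to reactive compounds, MGST3 and GSTT1 passed in opposite directions, and the median was -0.0029. MGST3, a membrane-bound form that also reduces lipid peroxides, read 12.62, 12.31, 12.00 and 12.24 in Callipyge and 12.01, 11.75, 11.71 and 11.04 in wildtype lambs. MGST3 differed by 0.66, with an interval from 0.08 to 1.25 (limma, adjusted p = 0.983; by permutation of the lambs, exact p = 0.0571). It did not pass without Callipyge animal 1, 2 or 4 or without wildtype animal 4, where it ran from 0.47 to 0.68. GSTT1 was dim, at 2.34 to 3.65 in Callipyge and 3.58 to 5.45 in wildtype lambs. Its difference of -1.16 was -0.54 with the offset of 16 and then no longer passed, nor did it pass without Callipyge animal 2 or 4 or without wildtype animal 2 or 3, where it ran from -1.20 to -0.75.

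Among 18 measured peroxiredoxins, thioredoxins and glutaredoxins none passed, 7 read higher and 11 lower, and the median was -0.04. PRDX4, the peroxiredoxin of the endoplasmic reticulum, had the smallest P, 0.0463 from limma. It read 10.35 to 10.65 in Callipyge and 10.01 to 10.42 in wildtype lambs, with a difference of 0.39. PRDX2, a cytosolic form named after its values were seen, differed the other way, by -0.48, and was highest in wildtype animal 1, at 11.12 against 10.01 to 10.57 elsewhere. PRDX2 passed without Callipyge animal 1, at -0.60, but was -0.34 without wildtype animal 1 and -0.27 without that lamb and Callipyge animal 4. SELENBP1, a selenium-binding protein that oxidises methanethiol, read 10.08, 10.11, 10.16 and 10.79 in Callipyge and 9.52, 9.78, 9.84 and 9.53 in wildtype lambs. The genotypes did not overlap, and the log2 difference was 0.62 with an interval from 0.13 to 1.11 (adjusted p = 0.983 from limma). Without Callipyge animal 4, the highest lamb, it was 0.44 and no longer passed the fold threshold. It did not pass without wildtype animal 1 or 4 either, at 0.57 in both cases. The other 13 genes of selenoprotein supply ran from -0.16 to 0.36.

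NRF2, encoded by NFE2L2, is the transcription factor that answers oxidants by raising genes such as HMOX1, NQO1 and GCLM. Of 22 measured genes of this pathway and of iron handling, 10 read higher and 12 lower, none passed, and the median was -0.01. BLVRA, which turns biliverdin into bilirubin, had the smallest P. It read 6.79 to 7.07 in Callipyge and 7.08 to 7.54 in wildtype lambs, just without overlap, a difference of -0.32 with an interval from -0.70 to 0.07. HMOX1, haem oxygenase, named after its values were seen, differed by -0.34 with overlap. Of 15 measured enzymes that produce oxidants none passed either, 10 read higher and 5 lower. MPO, a peroxidase of granulocytes, had the smallest P, and its probe sets differed by 0.78 and -0.46.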

How the data were processed

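Perirenal fat of 4 Callipyge (NmatCpat) and 4 wildtype (NmatNpat) lambs was profiled, 1 array each. Of each array the authors deposited the MAS5 intensity, on a linear scale, of 24128 probe sets (lowest value 0.1; median signal 65.3 to 72.6 per array). The study describes a quantile normalization, but the columns do not share their quantiles. Log2 values were therefore quantile-normalized before 112 control probe sets were dropped, and limma (version 3.58.1, R 4.3.3, moderated by eBayes) was run on the other 24016 without covariates and with Benjamini-Hochberg adjustment over all of them. Two-sided exact permutation tests used the 70 arrangements of the lambs and cannot give a p under 0.0286. The number of arrays limits the precision.

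Symbols came from the platform's annotation, which is old: 1 symbol for 13292 probe sets, several for 86 and none for 10638. The 10 genes and all lists were chosen with earlier results of these data known. By a fixed rule the text also names, in each list, the gene with the smallest P and up to 4 past the thresholds, and the 3 genes most alike in pattern to the 3 most variable of the 10. Alternatives were other variance models, array weights, median centring, cyclic loess, an offset of 16, filters on dim or cross-binding probe sets, animal number as block, leaving out lambs, averaging a gene's probe sets, and other thresholds. The scripts were tested on simulated data. No sequences were used here.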

Additional observations from a re-analysis of the deposited data

Results flagged for a closer look

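In 4 lambs of a genotype, a reading was singled out when its gap to the nearest other lamb exceeded Dixon's critical share of the range of the 4, which chance gives in about 1 of 20 groups. Of 62 groups tested 5 met it. SOD3 read 4.93 in Callipyge animal 1 against 7.87 to 8.22 in the other Callipyge lambs. PRDX6 read 10.71 in wildtype animal 3 against 11.07 to 11.14. PRDX2 read 11.12 in wildtype animal 1, the array with neuron or chromaffin transcripts and the high actin ratio, against 10.53 to 10.55. PRDX4 read 10.42 in wildtype animal 3 against 10.01 to 10.06. SELENBP1 read 10.79 in Callipyge animal 4 against 10.08 to 10.16.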

How the results depend on the processing

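The count of 0 among the 10 genes was 1 in 3 of 21 alternatives, each time SOD2: with a trended robust variance, with the replicate block, and without Callipyge animal 1, so that single lambs left out gave 0 to 1. The labels do not say whether the animal numbers pair the lambs. Same-numbered lambs had correlations of only -0.01 to 0.05 in their deviations. For Callipyge animals 1, 2 and 3 the same-numbered wildtype lamb was still the closest, and for animal 4 it was wildtype animal 3, at 0.015. Correlations this small cannot decide whether the numbers are a pairing. Of the 4 other genes past P and fold, MTF1 passed in 18 of 18 alternatives, MGST3 in 15 of 19, SELENBP1 in 14 of 19 and GSTT1 in 10 of 18; MTF1 and GSTT1 could not be read above the median level. Of the 118 genes, 2 passed above the median level, 2 without wildtype animal 1 and Callipyge animal 4, and 2 to 5 with single lambs left out, the lowest without Callipyge animal 4 (MTF1 and SRXN1); the replicate block gave 4, with SELENBP1 lost and SOD2 gained. The count over all probe sets, 943, was 626 without moderated variances, 244 above the median level, 1124 with the block and 979 to 1052 with single lambs left out. Several differences changed sign, none of them called. GPX3 was 0.046 with median centring and 0.082 without wildtype animal 1 and Callipyge animal 4, where PRDX1 was -0.18. With a gene's probe sets averaged PRDX3 was -0.12 and PRDX6 -0.011. With single lambs left out SOD1 ran from -0.054 to 0.16, SOD3 from -0.83 to 0.26, GPX3 from -0.12 to 0.062, PRDX1 from -0.14 to 0.13, PRDX3 from -0.089 to 0.10, MT2A from -0.36 to 0.054 and MT1A from -0.16 to 0.62. The cause of these changes was not tested. With 4 arrays a genotype, the intervals of SOD2 and SOD3 reached past 2-fold.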

Other observations

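Markers of other cell types were read in the same fit. Of 7 measured red cell genes 2 passed P and fold, where 2.91% of all genes did. AHSP, the chaperone of alpha haemoglobin, had a log2 difference of 2.22, and HBM, a globin, 0.90. These were higher in Callipyge lambs and were named after their values were seen. Both were dim, with mean levels of 4.88 and 3.90 against a median level of 5.99, and HBA, an alpha globin, and ALAS2, of haem synthesis, differed the other way, by -0.34 and -0.09. The summed signal of the 7 was 404 to 521 in Callipyge and 223 to 412 in wildtype lambs. Macrophage genes ranged widely within both genotypes, with sums of 1839 to 4722 and 1836 to 4413, and none of 9 passed. No member passed among 10 liver, 8 kidney tubule and 9 adrenal cortex genes. Of the 118 antioxidant and oxidant genes, 22 (18.6%) were highest in Callipyge animal 1, 21 (17.8%) in wildtype animal 1 and 20 (16.9%) in Callipyge animal 4, against 6.78% to 13.6% in each of the other lambs. Over all 9155 genes these 3 lambs held the highest reading in 13.7%, 14.6% and 14.4%, against 10.5% to 13.1% in the others. Wildtype animal 1 was also lowest in the most of the 118, 24. It was lowest most often over all 9155 genes too, in 15.8% against 10.4% to 13.9% in the other lambs.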
